A study of Homo sapiens with 8 samples.

Results

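TRAIL, the death receptors and the caspase switch beneath them were examined as 10 genes, chosen by their place in the TRAIL and FAS pathway with their levels in these libraries already known. They are the ligand TNFSF10 (TRAIL), the receptors TNFRSF10A, TNFRSF10B and FAS, the decoy receptors TNFRSF10C and TNFRSF10D, the adaptor FADD, the initiator caspases CASP8 and CASP10, and CFLAR, the regulator that competes with them. Of 61533 genes in the count tables these are 10. All 10 had a count, and 9 of them were among the 18738 genes that passed the filter on low counts. The one that did not pass was TNFRSF10C. Because earlier values chose the genes, their levels and changes are given as a description. A gene is called here when its adjusted p in an edgeR quasi-likelihood test over all 18738 genes was under 0.05, and the call only marks that line.

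The libraries came from 2 human carcinoma cell lines, CAL27, labelled a squamous cell carcinoma, and A431, labelled an epidermoid carcinoma. The 4 groups were CAL27 cells with an inhibitor labelled NEDD8i, CAL27 cells with DMSO (the solvent), A431 cells with NEDD8i and A431 cells with DMSO, each treated for 16 h and each with 2 libraries. No group carried a labelled genetic change, and each line is a single line standing for its tumour type. The comparisons ask how transcripts move when the NEDD8 pathway is blocked. NEDD8 is a small ubiquitin-like protein whose attachment to cullins switches on the cullin-RING ubiquitin ligases.

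TRAIL is made as a membrane protein and binds TNFRSF10A (DR4) and TNFRSF10B (DR5), whose cytoplasmic death domains recruit FADD, as that of FAS does when it binds FAS ligand. FADD gathers CASP8 and CASP10 into a complex in which the caspases activate each other and start apoptosis. CFLAR (c-FLIP) enters the same complex and, depending on its isoform and amount, holds the caspases back. TNFRSF10C and TNFRSF10D bind TRAIL but lack a working death domain. In stratified epithelium and its carcinomas these genes are widely transcribed, and many cells that carry the receptors do not die when TRAIL binds.

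The 8 libraries held 49037868 to 62509817 counts. Values are CPM, counts scaled to library sizes with TMM factors, and log2 changes are given ± SE from the fit. The kit reads transcript 3′ ends, so CPM are compared between groups and not between genes. Fewer cells making a transcript and less of it per cell cannot be told apart in such libraries. All 7 keratinocyte and epithelial markers looked at, among them KRT5, KRT14 and CDH1, had counts in every library. Their summed CPM were 12537 to 13061 in CAL27 NEDD8i against 12479 to 12510 in CAL27 DMSO, and 9606 to 9915 in A431 NEDD8i against 8928 to 9007 in A431 DMSO. Members moved both ways within these sums, with 5 called higher and 2 lower in CAL27 and 4 higher and 2 lower in A431. Over all genes tested, 49.6% were called in CAL27 and 43.6% in A431. KRT18, a simple-epithelium keratin, rose by 1.13 in CAL27 and 1.04 in A431. TP63, the basal-layer transcription factor, had 123 and 109 CPM in CAL27 NEDD8i libraries, against 522 and 529 CPM in CAL27 DMSO libraries, a log2 change of −2.18. In A431 it had 261 and 269 CPM in NEDD8i libraries, against 280 and 288 CPM in DMSO libraries. Mean KRT14 CPM under NEDD8i against DMSO were 3362 against 2479 in CAL27 and 3715 against 2075 in A431. KRT5 changed by −0.27 in CAL27 and −0.43 in A431. The sum of 10 blood, endothelial and fibroblast markers was 16.4 to 19.4 CPM in CAL27 NEDD8i against 25.7 to 27.5 in CAL27 DMSO, and 10.8 to 12.3 in A431 NEDD8i against 30.5 to 31.5 in A431 DMSO. CDH5, an endothelial cadherin, changed by 0.81 in CAL27 and −2.97 in A431 (log2), where it had 2.01 and 2.48 CPM in NEDD8i libraries, against 18.7 and 16.6 CPM in DMSO libraries. The collagen gene COL1A1 changed by −1.23 in CAL27 and −0.53 in A431, and COL1A2 by −2.25 in CAL27. Among those 10, PTPRC, CD68 and NKG7 were at 0 in every library, though all exonic bases of CD68 are shared with other genes. The part of these markers in the results was not tested.

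In both lines the ligand transcript TNFSF10 was the one of the 9 that fell furthest. Transcripts of the receptors TNFRSF10A, TNFRSF10B and TNFRSF10D were higher under NEDD8i in both, and CASP10 was lower. FADD and CASP8 went opposite ways in the 2 lines, by small amounts. In CAL27, 5 of the 9 tested genes were called higher and 3 lower under NEDD8i, with 49.6% of all genes tested called in that comparison. In A431 the counts were also 5 higher and 3 lower, with 43.6% of all genes called. The median change of the 9 genes was 0.21 in CAL27 and 0.22 in A431, against medians over all genes tested of −0.04 in CAL27 and −0.01 in A431.

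**Figure D1:**
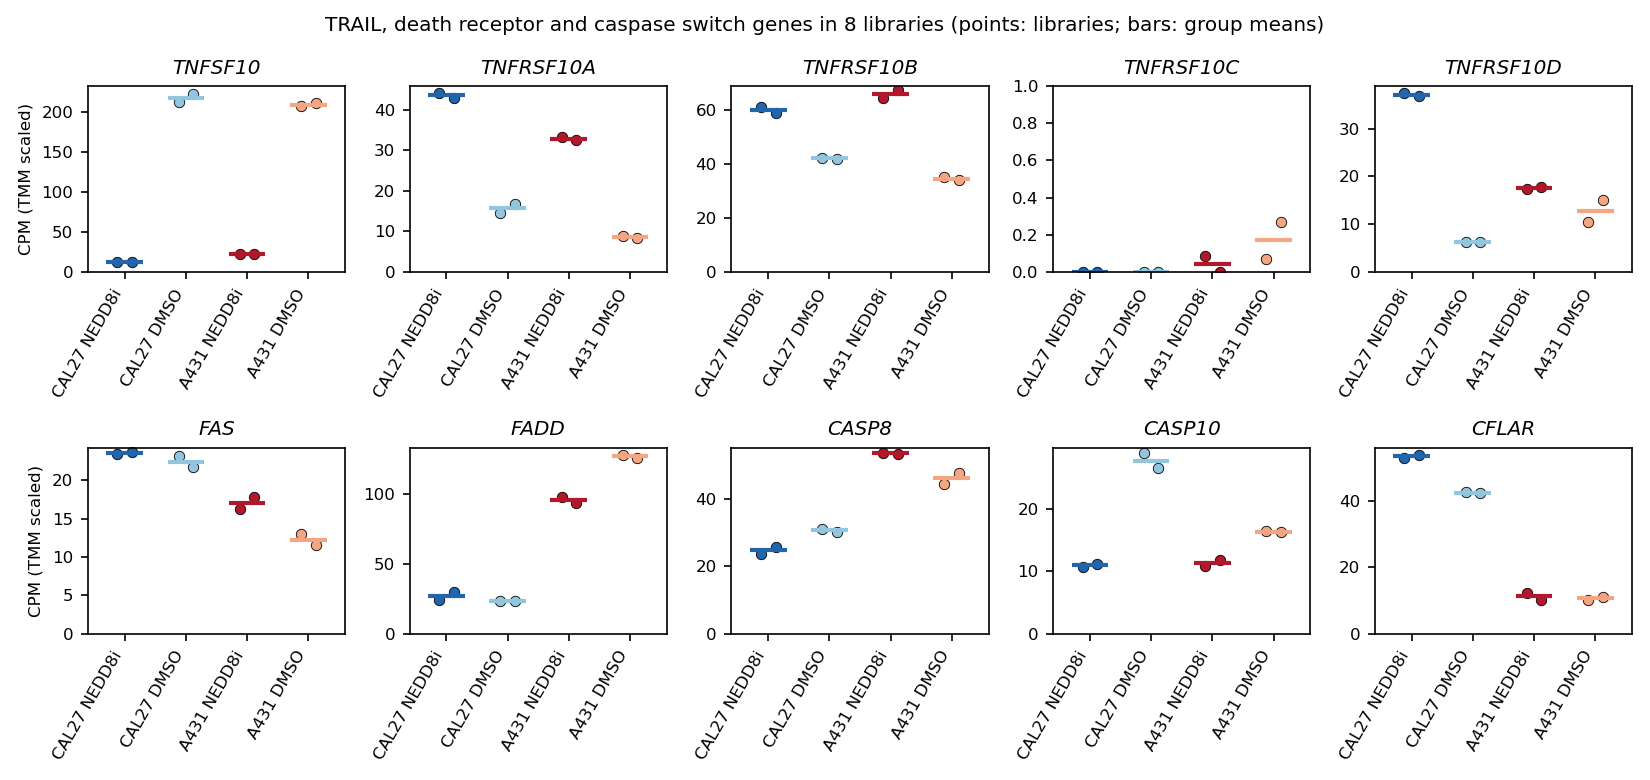
CPM of the 10 genes (vertical axes, a scale of its own for each gene, starting at 0) in the 4 groups. Each point is a library and each bar the mean of its group. TNFSF10 sits between 12.8 and 22.8 CPM in the NEDD8i libraries and between 208 and 223 CPM in the DMSO libraries.

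TNFSF10 encodes TRAIL, the ligand. It lies on the minus strand at chr3:172505508-172523475 (GRCh38), and no exonic base of it is shared with another gene. In CAL27 it had 12.8 and 13.0 CPM in the NEDD8i libraries, against 214 and 223 CPM in the DMSO libraries. In A431 it had 22.7 and 22.8 CPM in the NEDD8i libraries, against 208 and 212 CPM in the DMSO libraries. The treated libraries lay far under the solvent libraries in both lines, and within each group the libraries were close together. The log2 change was −4.08 ± 0.06 in CAL27, a 17-fold lower level, and −3.20 ± 0.06 in A431, a 9.22-fold lower level. Among all 18738 genes tested, TNFSF10 ranked 337 from the lowest change in CAL27 and 604 in A431. Among genes with at least 100 CPM under DMSO, a limit set after its values were seen, it ranked 6 of 2111 in CAL27 and 3 of 2236 in A431. The fall was larger in CAL27 than in A431 by −0.88 ± 0.08. Under DMSO the lines were level, with CAL27 0.06 ± 0.05 above A431, which was not called.

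The promoter window of TNFSF10 is printed because its transcript fell furthest. The first of 3 windows listed for CASP8 is printed because it holds the same core element and the CASP8 transcript changed less. The CASP8 changes were −0.31 in CAL27 and 0.22 in A431. The 2 windows were picked after the changes were seen, and the part of this element in the changes was not tested. Both run from 250 bases before to 50 bases after a RefSeq transcript start (GRCh38.p14). TNFSF10 is at chr3:172523381-172523680, minus strand, and CASP8 at chr2:201233213-201233512, plus strand. Capitals mark matches to 8 short motifs searched on both strands. The motifs were the interferon-stimulated response element core GAAANNGAA, the STAT palindrome TTCNNNGAA, the NF-kB site GGGNNTTCC, the AP-1 site TGANTCA, the GC box GGGCGG, the FOXO site TGTTTAC, the CEBP-ATF element TGATGNAAT and the E-box CACGTG.
TNFSF10: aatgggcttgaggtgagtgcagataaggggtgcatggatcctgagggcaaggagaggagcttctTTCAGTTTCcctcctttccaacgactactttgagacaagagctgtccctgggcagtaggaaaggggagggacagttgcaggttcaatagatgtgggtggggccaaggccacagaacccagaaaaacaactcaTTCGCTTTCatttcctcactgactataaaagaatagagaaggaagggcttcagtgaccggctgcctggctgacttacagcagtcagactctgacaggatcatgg
CASP8: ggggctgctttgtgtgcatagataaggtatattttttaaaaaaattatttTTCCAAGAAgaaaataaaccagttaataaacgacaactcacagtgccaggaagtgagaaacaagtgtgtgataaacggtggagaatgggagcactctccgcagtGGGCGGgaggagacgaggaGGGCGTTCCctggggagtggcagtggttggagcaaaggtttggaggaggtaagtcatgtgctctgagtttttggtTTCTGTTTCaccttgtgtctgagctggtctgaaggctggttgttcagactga

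The TNFSF10 window held the interferon-stimulated core at 2 places, both read on the opposite strand, starting 186 and 54 bases before the transcript start, and none of the other 7 motifs. Of 35116 RefSeq promoter windows of the same length, 8.11% held that core at least once and 0.701% held it at 2 or more places. The CASP8 window held 1 such core across its start, 1 STAT palindrome, 1 NF-kB site and 1 GC box, which 7.66%, 6.58% and 45% of all windows hold. No capitals in these windows belong to overlapping motifs. The 5 of 10 genes found in the promoter table were TNFSF10, FAS, FADD, CASP8 and CFLAR. One of the 4 CFLAR windows also held the interferon-stimulated core, and no window of FAS or FADD did. A match is only a run of letters, and no binding was measured.

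The receptors TNFRSF10A and TNFRSF10B carry the TRAIL signal across the membrane, and transcripts of both were higher under NEDD8i in both lines. They lie on the minus strand of chromosome 8 (GRCh38), TNFRSF10B from 23020133 to 23069031 and TNFRSF10A from 23190452 to 23225102. TNFRSF10A had 44.1 and 43.0 CPM in CAL27 NEDD8i libraries, against 14.6 and 16.7 CPM in CAL27 DMSO libraries. It had 33.2 and 32.5 CPM in A431 NEDD8i libraries, against 8.76 and 8.36 CPM in A431 DMSO libraries. The 4 groups did not overlap, and both treated groups stood above both solvent groups. The change was 1.47 ± 0.10 in CAL27 (2.77-fold higher) and 1.94 ± 0.10 in A431 (3.83-fold higher). The CAL27 change was smaller than that in A431 by −0.47 ± 0.14, a difference that was called, but not without CAL27 DMSO replicate 2 (−0.35, adjusted p = 0.101 in edgeR's quasi-likelihood test).

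TNFRSF10B (DR5) moved the same way by less. It had 61.1 and 58.9 CPM in CAL27 NEDD8i libraries, against 42.4 and 42.1 CPM in CAL27 DMSO libraries. It had 64.6 and 67.3 CPM in A431 NEDD8i libraries, against 35.2 and 34.0 CPM in A431 DMSO libraries. Again the groups did not overlap, and the treated groups of the lines were nearer to each other than the solvent groups were. The change was 0.51 ± 0.07 in CAL27 (1.42-fold higher) and 0.93 ± 0.07 in A431 (1.91-fold higher), with a difference between the lines of −0.42 ± 0.10. In TNFRSF10A, 8.33% of exonic bases are shared with the antisense gene TNFRSF10A-AS1, and in TNFRSF10B 9.43% are shared with RHOBTB2, and counting did not use strand.

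Decoy receptors compete for the ligand without passing the signal on. TNFRSF10D, on the minus strand of chromosome 8 from 23135588 to 23164027, had 37.4 and 36.8 CPM in CAL27 NEDD8i libraries, against 6.38 and 6.27 CPM in CAL27 DMSO libraries. In A431 it had 17.4 and 17.9 CPM in NEDD8i libraries, against 10.4 and 15.1 CPM in DMSO libraries. The A431 solvent libraries differed from each other more than those of any other group did for this gene, while both CAL27 groups were tight. The change was 2.55 ± 0.14 in CAL27, a 5.86-fold higher level, and 0.48 ± 0.14 in A431. The A431 call was lost without A431 DMSO replicate 1 (0.24, adjusted p = 0.152) and without A431 NEDD8i replicate 2 (0.46, adjusted p = 0.0547), both by edgeR, and the change was 0.76 without A431 DMSO replicate 2. The CAL27 change exceeded the A431 change by 2.08 ± 0.20, the widest gap between the lines among the 9 tested genes.

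TNFRSF10C, the other decoy, lies on the plus strand of chromosome 8 from 23102921 to 23117445, and 36.6% of its exonic bases are shared with other genes. It had 0 counts in all 4 CAL27 libraries, 4 and 0 counts in the A431 NEDD8i libraries, and 4 and 14 counts in the A431 DMSO libraries. A count of 0 allows up to 3 counts, which is 0.0454 to 0.0656 CPM in these libraries and covers counting error only. That limit takes counts as independent; since each mate was counted, 3 read pairs can give 6 counts, or 0.0908 to 0.131 CPM. The A431 groups overlapped, so no change in this decoy was detectable at this depth.

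**Figure D2:**
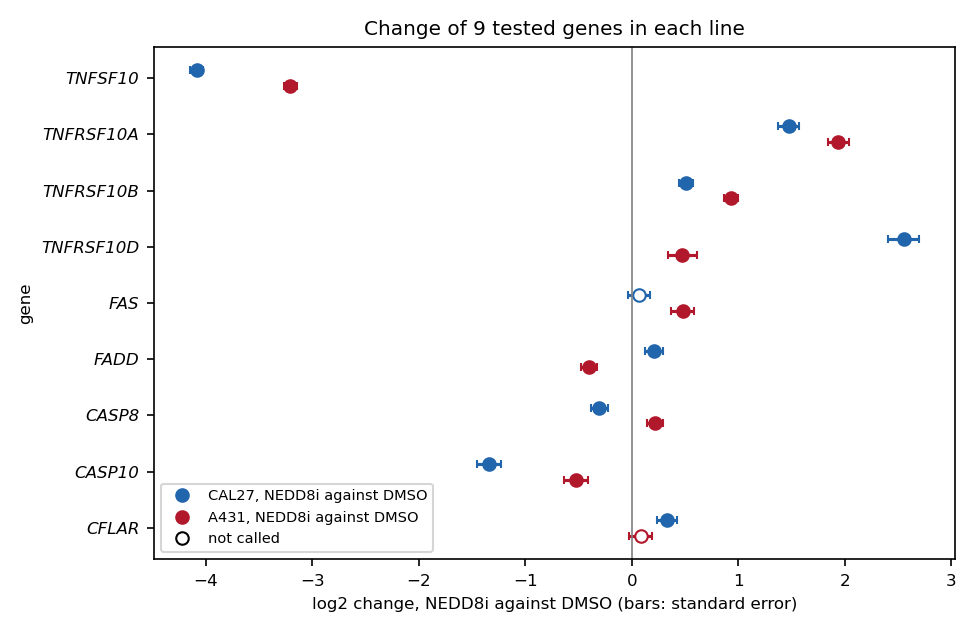
Log2 change under NEDD8i against DMSO (horizontal axis) of the 9 tested genes (vertical axis), with bars for the SE, blue for CAL27 and red for A431. Filled points are called genes. TNFSF10 stands at −4.08 in CAL27 and −3.20 in A431, and TNFRSF10D at 2.55 in CAL27 and 0.48 in A431.

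The relative amounts of decoy and signalling receptor transcripts moved in opposite directions in the 2 lines. The log2 ratio of TNFRSF10D counts to those of TNFRSF10A and TNFRSF10B together depends on each transcript's 3′ ends and is read only between groups. It was −1.49 and −1.47 in CAL27 NEDD8i libraries, against −3.16 and −3.23 in CAL27 DMSO libraries, a change of 1.71. It was −2.49 and −2.48 in A431 NEDD8i libraries, against −2.08 and −1.49 in A431 DMSO libraries, a change of −0.70. The size of the A431 change rests on the DMSO libraries: it was −0.99 without A431 DMSO replicate 1 and −0.40 without A431 DMSO replicate 2. So the decoy share was higher in treated CAL27 libraries and lower in treated A431 libraries, and the groups did not overlap within either line. The ratio of TNFRSF10A to TNFRSF10B changed by 0.97 in CAL27 and by 1.01 in A431, so between these receptors the balance moved alike. Under DMSO it stood 0.58 higher in CAL27 than in A431.

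FAS, the receptor for FAS ligand, is encoded on the plus strand at chr10:88986740-89029605. It had 23.4 and 23.7 CPM in CAL27 NEDD8i libraries, against 23.2 and 21.7 CPM in CAL27 DMSO libraries. In A431 it had 16.2 and 17.8 CPM in NEDD8i libraries, against 12.9 and 11.6 CPM in DMSO libraries. The A431 groups were apart, while the CAL27 groups were separated by less than the spread of the CAL27 DMSO libraries. The change was 0.07 ± 0.10 in CAL27, which was not called, and 0.48 ± 0.11 in A431, which was. The difference between the lines, −0.41 ± 0.15, was at the edge of the threshold. It was not called in edgeR without A431 DMSO replicate 2 (adjusted p = 0.18), A431 NEDD8i replicate 2 (0.164), CAL27 DMSO replicate 1 (0.188) or 2 (0.0831), or CAL27 NEDD8i replicate 1 (0.0929) or 2 (0.0826), nor by DESeq2 (0.106). FASLG, the gene of FAS ligand itself, had 0 counts in all 8 libraries.

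FADD, the adaptor on which the TRAIL and FAS receptors converge, was the gene whose level under DMSO separated the lines most. It lies on the plus strand at chr11:70203296-70207390, and 57.1% of its exonic bases are shared with the gene ENSG00000254721, so its counts are uncertain. It had 24.2 and 29.6 CPM in CAL27 NEDD8i libraries, against 23.1 and 23.4 CPM in CAL27 DMSO libraries. It had 98.0 and 93.9 CPM in A431 NEDD8i libraries, against 128 and 126 CPM in A431 DMSO libraries. Every CAL27 library was under every A431 library, whatever the treatment. The change was 0.21 ± 0.08 in CAL27 and −0.41 ± 0.07 in A431, and the difference between these changes was 0.62 ± 0.11. The CAL27 call depended on single libraries. Without CAL27 NEDD8i replicate 2 the change was 0.06 (adjusted p = 0.6 in edgeR), and without replicate 1 it was 0.35. The call was also lost without CAL27 DMSO replicate 1 (0.119) or 2 (0.103), without A431 NEDD8i replicate 1 (0.0578) or 2 (0.0571), and in a fit of the 4 CAL27 libraries alone (0.057).

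CASP8 encodes the caspase that FADD recruits and that cleaves the executioner caspases. It is on the plus strand at chr2:201233443-201287711. CASP8 had 23.7 and 25.7 CPM in CAL27 NEDD8i libraries, against 31.0 and 30.1 CPM in CAL27 DMSO libraries. It had 53.6 and 53.2 CPM in A431 NEDD8i libraries, against 44.4 and 47.7 CPM in A431 DMSO libraries. Within each line the groups were apart, in opposite directions and by little. The change was −0.31 ± 0.08 in CAL27 and 0.22 ± 0.08 in A431, with a difference of −0.52 ± 0.11. The A431 call was lost without A431 DMSO replicate 1 (0.17, adjusted p = 0.175), NEDD8i replicate 1 (0.21, adjusted p = 0.116) or NEDD8i replicate 2 (0.22, adjusted p = 0.0992), all in edgeR.

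CASP10, a close relative of CASP8 that mice lack, is its neighbour at chr2:201182898-201229406 on the same strand. It had 10.7 and 11.2 CPM in CAL27 NEDD8i libraries, against 29.0 and 26.5 CPM in CAL27 DMSO libraries. It had 10.9 and 11.8 CPM in A431 NEDD8i libraries, against 16.4 and 16.3 CPM in A431 DMSO libraries. The treated libraries of the 2 lines overlapped, whereas the solvent libraries were far apart. The change was −1.34 ± 0.11 in CAL27, a 2.54-fold lower level, and −0.52 ± 0.11 in A431, and the lines differed by −0.82 ± 0.16. Against CASP8 in the same library, CASP10 changed by −1.03 in CAL27 and −0.74 in A431 on the log2 scale.

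CFLAR, at chr2:201116154-201176687, is the third gene of that row, and 9.86% of its exonic bases are shared with other genes. It had 53.2 and 54.1 CPM in CAL27 NEDD8i libraries, against 42.9 and 42.5 CPM in CAL27 DMSO libraries. It had 12.4 and 10.2 CPM in A431 NEDD8i libraries, against 10.2 and 11.1 CPM in A431 DMSO libraries. The A431 groups overlapped, and every CAL27 library was above every A431 library. The change was 0.33 ± 0.09 in CAL27, which was called, and 0.08 ± 0.10 in A431, which was not. One of the genes that share its exonic bases, CFLAR-AS1, was also called higher in CAL27 (4.19 ± 1.32). Counting did not use strand, and the part of CFLAR-AS1 in the CFLAR change was not tested. The difference between these changes, 0.25 ± 0.14, was not called. The counts are summed over CFLAR isoforms, so the long and short forms of the protein cannot be told apart here.

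CFLAR and CASP8 transcripts shifted against each other in CAL27. Their log2 ratio was 1.17 and 1.08 in CAL27 NEDD8i libraries, against 0.47 and 0.50 in CAL27 DMSO libraries, a change of 0.64. In A431 it was −2.11 and −2.38 in NEDD8i libraries, against −2.12 and −2.10 in DMSO libraries, and these groups overlapped. The ratio under DMSO was 2.59 higher in CAL27 than in A431.

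**Figure D3:**
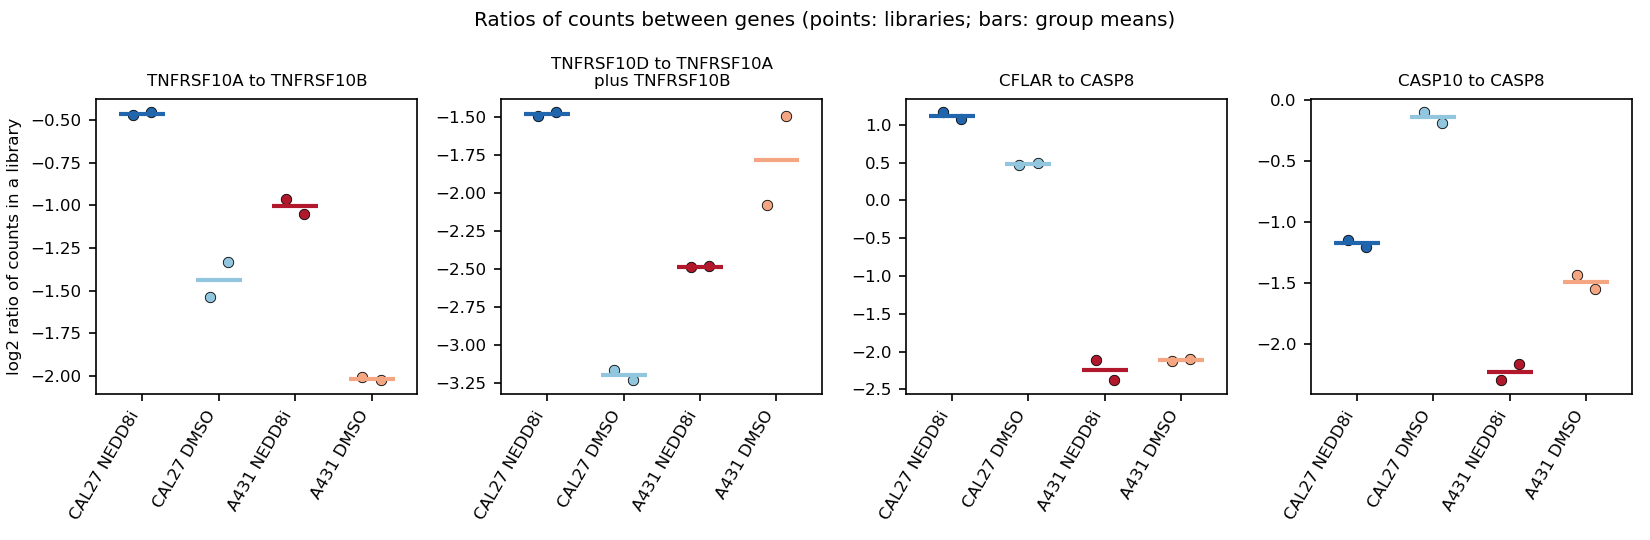
Log2 ratio of counts between genes within a library (vertical axes) in the 4 groups. Points are libraries and bars group means. The ratio of TNFRSF10D to TNFRSF10A plus TNFRSF10B changes by 1.71 in CAL27 and by −0.70 in A431, where the 2 DMSO libraries stand apart (−2.08 and −1.49).

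Between the solvent groups, CAL27 had more of 5 of the 9 tested genes and less of 3 of them than A431, with 58.9% of all genes called in that comparison and a median over all genes of 0.05. As log2 differences, CAL27 minus A431, CFLAR had 2.0 ± 0.10 (4.01-fold higher in CAL27) and FADD −2.45 ± 0.08 (5.47-fold lower in CAL27). TNFRSF10A was higher by 0.87 ± 0.10, FAS by 0.87 ± 0.11, CASP10 by 0.76 ± 0.11 and TNFRSF10B by 0.29 ± 0.07. The difference was −1.01 ± 0.15 for TNFRSF10D and −0.59 ± 0.08 for CASP8, both lower in CAL27. TNFSF10, at 0.06 ± 0.05, was the gene not called. The 2 caspases thus differed in opposite directions, and their ratio, CASP10 to CASP8, was 1.35 higher in CAL27. For the response to NEDD8i itself, 2 of the 9 genes had a change called higher in CAL27 than in A431 and 6 called lower, with 34% of all genes called. The higher ones were TNFRSF10D and FADD. The response comparison and the solvent comparison share the DMSO libraries of both lines.

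The order of the 4 groups differed from gene to gene. TNFRSF10A was highest in CAL27 NEDD8i, then A431 NEDD8i, CAL27 DMSO and A431 DMSO, and TNFRSF10B was highest in A431 NEDD8i. TNFRSF10D ran from CAL27 NEDD8i through A431 NEDD8i and A431 DMSO down to CAL27 DMSO. CASP8 and FADD had both A431 groups on top, and FAS and CFLAR both CAL27 groups. Neighbours in these orders did not overlap, except for CASP10 between the 2 NEDD8i groups, for CFLAR between the 2 A431 groups, and for TNFRSF10C throughout. How many of all genes tested part in this way was not counted, here or where groups are said above not to overlap. Groups of 2 libraries can also part by chance.

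The receptor genes and the CFLAR, CASP10 and CASP8 row were set beside the tested genes around them, chosen by position after the values were seen. Next to CFLAR, NDUFB3 changed by 0.22 in CAL27 and −0.48 in A431. Beyond CASP8, TRAK2 had −0.04 (not called) in CAL27 and changed by −0.35 in A431, and STRADB by −0.76 in CAL27 and 0.71 in A431. Along the row as drawn, no adjoining pair had the same pattern of calls over the lines. CFLAR-AS1, next to CFLAR but not drawn for its large SE, had the pattern of CFLAR. It was called higher in CAL27 (4.19 ± 1.32) and not called in A431. Along the receptor row as drawn, TNFRSF10B, TNFRSF10D and TNFRSF10A adjoin, and all were called higher in both lines. Beside the receptors, RHOBTB2 changed by −0.48 in CAL27, and its −0.28 in A431 was not called. CHMP7 changed by 0.52 in CAL27 and 0.29 in A431. TNFRSF10A-DT, which starts just upstream of TNFRSF10A on the other side, had 0.66 in CAL27, which was not called, and changed by 1.40 in A431.

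**Figure D4:**
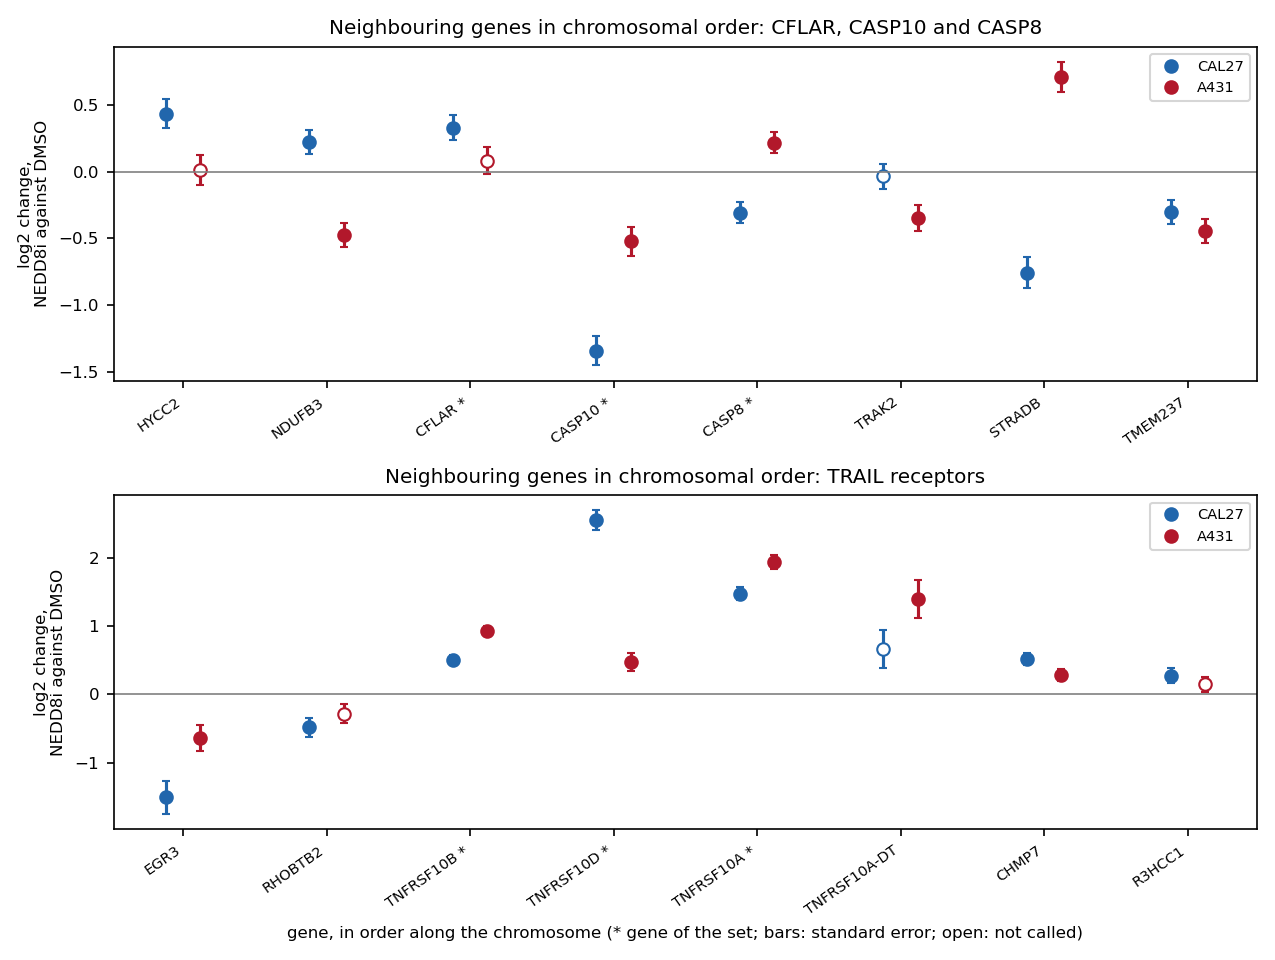
Log2 change under NEDD8i against DMSO (vertical axes, bars for the SE) of genes in their order along the chromosome, blue for CAL27 and red for A431, filled where called and with an asterisk for genes of the set. Of 10 and 12 tested genes in the 2 stretches, the 8 and 8 with an SE under 0.5 in both lines are drawn. CASP10 stands at −1.34 in CAL27 and −0.52 in A431, between CFLAR and CASP8.

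The other receptors, ligands and decoys of the family were read from a list of 18 genes, of which 12 passed the filter. In CAL27, 1 was called higher and 6 lower, with a median of −0.55 and 49.6% of all genes tested called. In A431, 2 were called higher and 3 lower, near the 43.6% called over all genes, with a median of −0.05 (−0.12 over the 10 genes with counts in both groups). TNFRSF12A, the receptor for TWEAK, rose in both lines, by 1.88 ± 0.07 in CAL27 and 0.91 ± 0.07 in A431. It had 595 and 538 CPM in CAL27 NEDD8i libraries, against 145 and 162 CPM in CAL27 DMSO libraries. In A431 it had 247 and 238 CPM in NEDD8i libraries, against 138 and 119 CPM in DMSO libraries. LTBR, the lymphotoxin beta receptor, changed by −0.20 ± 0.05 in CAL27 and 0.33 ± 0.05 in A431.

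NGFR, the neurotrophin receptor with a death domain, fell in both lines, with log2 changes of −2.34 ± 0.25 in CAL27 and −3.49 ± 0.31 in A431. It had 2.57 and 4.71 CPM in CAL27 NEDD8i libraries, against 17.0 and 19.9 CPM in CAL27 DMSO libraries, and 0.919 and 0.455 CPM in A431 NEDD8i libraries, against 6.71 and 8.42 CPM in A431 DMSO libraries. EDAR, the ectodysplasin receptor, changed by −0.94 ± 0.24 in A431, and TNFRSF21 (DR6) by −0.66 ± 0.04 in CAL27 and −0.56 ± 0.04 in A431. TNF, the founding ligand of the family, had 22 and 32 counts in CAL27 NEDD8i libraries, against 356 and 458 counts in CAL27 DMSO libraries, a log2 change of −3.83 ± 0.37. It had 0 counts in all 4 A431 libraries. TNFSF15, a ligand of the endothelium, changed by −1.32 ± 0.24 in CAL27, and its 0.44 ± 0.25 in A431 was not called. TNFSF10 and TNF thus both fell in CAL27, and in A431 the level of TNF was under the limit that a count of 0 allows. LTA and EDA2R had 0 counts throughout. LTB and TNFRSF6B had 0 counts in A431 and did not pass the filter, though 90.5% of the exonic bases of TNFRSF6B are shared with ARFRP1 and RTEL1-TNFRSF6B, and TNFSF14 had 0 counts in A431 DMSO libraries.

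Adaptors and ubiquitin enzymes of the receptor complexes formed a list of 24 genes, all of which passed the filter. In CAL27, 9 were called higher and 4 lower (median 0.07), near the 49.6% called over all genes. In A431, 11 were called higher and 5 lower (median 0.15), with 43.6% called over all genes. PEA15, a death effector domain protein that binds FADD and CASP8, rose by 1.5 ± 0.05 in CAL27 and 0.78 ± 0.05 in A431. GALNT3, which starts O-linked glycosylation, rose by 0.71 ± 0.04 in CAL27 and 0.61 ± 0.04 in A431. BIRC3 (cIAP2), a ubiquitin ligase of the TNF receptor complex, fell, with log2 changes of −2.55 ± 0.17 in CAL27 and −2.69 ± 0.23 in A431. It had 11.2 and 11.2 CPM in CAL27 NEDD8i libraries, against 65.4 and 66.5 CPM in CAL27 DMSO libraries. In A431 it had 0.831 and 1.95 CPM in NEDD8i libraries, against 7.75 and 10.8 CPM in DMSO libraries.

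Other genes of that list differed more between the lines. TNFAIP3 (A20), a ubiquitin-editing enzyme that restrains NF-kB, rose by 0.35 ± 0.06 in CAL27 and by 2.15 ± 0.08 in A431, where it had 51.4 and 52.8 CPM in NEDD8i libraries, against 12 and 11.5 CPM in DMSO libraries. TRAF1, an adaptor of TNF receptors, changed by −2.24 ± 0.65 and RIPK3, the kinase of necroptosis, by −1.24 ± 0.46 in A431. The TRAF1 call was lost without A431 DMSO replicate 2 (−1.82, adjusted p = 0.0576) or A431 NEDD8i replicate 1 (−1.56, adjusted p = 0.082), and the change was −3.82 without A431 NEDD8i replicate 2. The RIPK3 call was lost when any 1 of the 4 A431 libraries was left out, with adjusted p of 0.0901 to 0.197 in edgeR, and with DESeq2 (0.0522). RIPK3 had 0 counts in every CAL27 library, with 19.1% of its exonic bases shared with another gene. DEDD2, a death effector domain protein, rose by 1.27 ± 0.07 in CAL27 and 0.22 ± 0.07 in A431. RBCK1 (HOIL-1), a subunit of the linear ubiquitin ligase, changed by −0.43 ± 0.06 in CAL27 and 0.60 ± 0.06 in A431. MLKL, which RIPK3 activates, changed alike in the lines, by −0.72 ± 0.12 in CAL27 and −0.73 ± 0.13 in A431.

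Downstream caspases, their substrates and inhibitors formed a list of 16 genes, of which 15 passed the filter. In CAL27, 2 were called higher and 8 lower (median −0.27), with 49.6% of all genes called. In A431, 4 were called higher and 3 lower (median 0.03), near the 43.6% called over all genes. BIRC5 (survivin), an inhibitor of apoptosis family member that acts in mitosis, fell, with log2 changes of −0.56 ± 0.05 in CAL27 and −1.20 ± 0.05 in A431. BID, which CASP8 cleaves to engage mitochondria, changed by −0.27 ± 0.07 in CAL27 and 0.58 ± 0.07 in A431. DFFA, the inhibitor of the caspase-activated nuclease, rose by 0.27 ± 0.07 in A431, a call lost without A431 DMSO replicate 2 (0.19, adjusted p = 0.0716) or A431 NEDD8i replicate 2 (0.19, adjusted p = 0.0971). APAF1, the scaffold of the apoptosome, had 0.08 ± 0.09 in CAL27, which was not called, and changed by −0.42 ± 0.09 in A431. DFFB, the nuclease itself, and CASP9, the apoptosome's caspase, fell in CAL27, by −1.64 ± 0.26 and −0.97 ± 0.14, and had −0.15 ± 0.25 and −0.12 ± 0.13 in A431, which were not called. HTRA2, a mitochondrial protease, rose by 1.0 ± 0.11 in CAL27, with 33.9% of its exonic bases shared with LOXL3. DIABLO, with 96.2% of its exonic bases shared, did not pass the filter.

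Transcription factors known to act on some of these genes formed a list of 17, of which 16 passed the filter. In CAL27, 8 were called higher and 8 lower (median −0.03), with 49.6% of all genes called. In A431, 5 were called higher and 5 lower (median 0.02), with 43.6% of all genes called. IRF1, an interferon-induced activator that binds interferon-stimulated response elements, had 18.5 and 23.6 CPM in CAL27 NEDD8i libraries, against 108 and 115 CPM in CAL27 DMSO libraries. In A431 it had 26.0 and 24.0 CPM in NEDD8i libraries, against 78.3 and 75.2 CPM in DMSO libraries. It fell, with log2 changes of −2.41 ± 0.09 in CAL27 and −1.62 ± 0.09 in A431, and 15.4% of its exonic bases are shared with other genes. STAT2, which acts with IRF9 at such elements, changed by −0.36 ± 0.07 in CAL27 and −0.70 ± 0.07 in A431. IRF9 itself, with 86.3% of its exonic bases shared, did not pass the filter.

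DDIT3 (CHOP), a stress factor known to act on TNFRSF10B, rose by 1.55 ± 0.14 in CAL27 and 1.26 ± 0.15 in A431. JUN, an AP-1 subunit, rose by 1.06 ± 0.07 in CAL27 and 1.15 ± 0.07 in A431. RELA, an NF-kB subunit, rose by 0.72 ± 0.05 in CAL27 and 0.40 ± 0.06 in A431. MYC, a growth regulator, had 85.5 and 88.1 CPM in CAL27 NEDD8i libraries, against 211 and 235 CPM in CAL27 DMSO libraries, but 232 and 241 CPM in A431 NEDD8i libraries, against 89.3 and 79.9 CPM in A431 DMSO libraries. Its change was −1.36 ± 0.06 in CAL27 and 1.48 ± 0.06 in A431. These lists were drawn up with earlier results of these libraries known, and transcript levels do not give the activity of a factor.

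**Figure D5:**
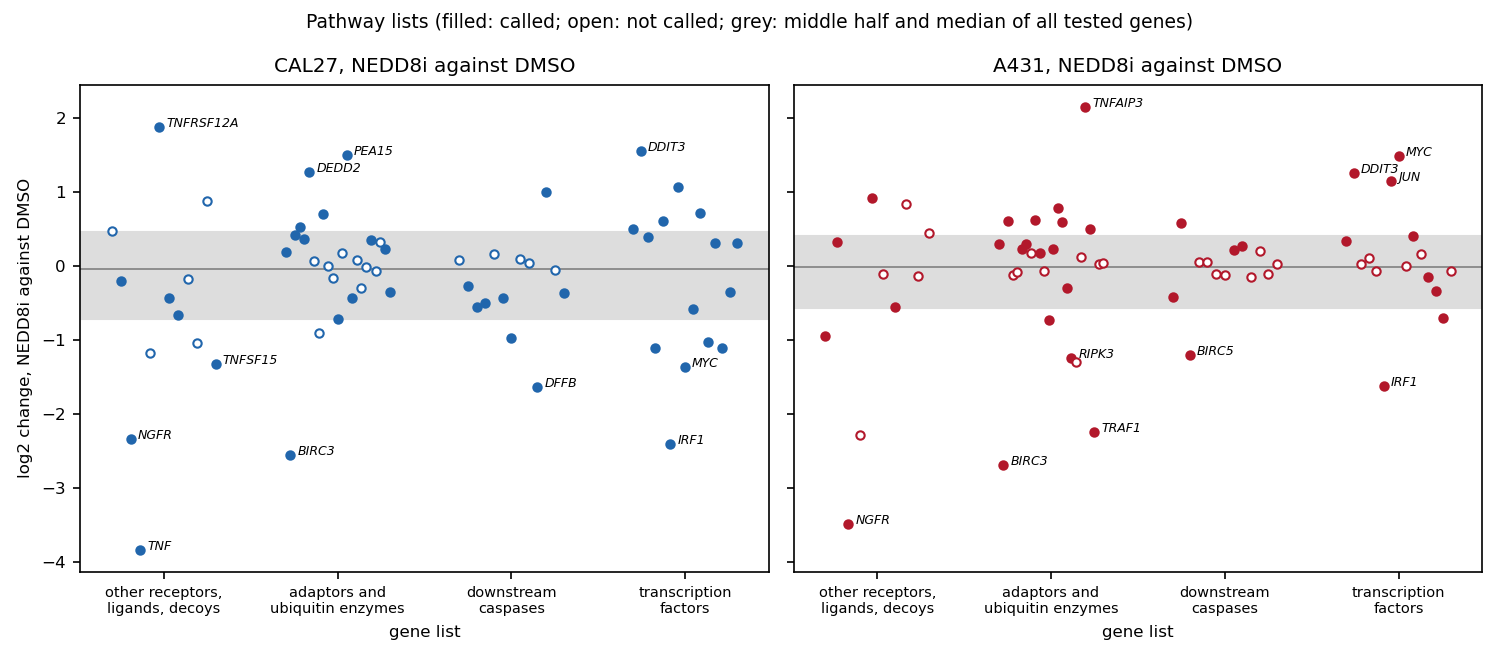
Log2 change under NEDD8i against DMSO (vertical axis) of each tested gene of the 4 pathway lists with a count in both groups, apart from 3 genes not reported here, CAL27 left and A431 right, filled where called. The grey band runs from the lower to the upper quartile of the changes of all genes tested and the grey line is their median, −0.04 in CAL27 and −0.01 in A431. NGFR and BIRC3 lie far under the band in both lines.

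Genes outside the set were ranked by likeness to TNFSF10, TNFRSF10B and FAS, as the correlation of log2 CPM over the 8 libraries, which fall into 4 groups and so hold few independent points. The genes most like TNFSF10 were PSMB8 (r = 0.998), a subunit of the immunoproteasome, CHD3 (r = 0.997), a chromatin remodeller, and STS (r = 0.997), the steroid sulfatase. PSMB8 changed by −1.54 in CAL27 and −1.06 in A431, CHD3 by −1.44 in CAL27 and −1.08 in A431, and STS by −2.26 in CAL27 and −1.66 in A431. Their changes were smaller than those of TNFSF10, and their shared direction follows from how they were picked. Most like TNFRSF10B were PLCG1 (r = 0.997), YEATS2 and PTPN12 (r = 0.996 each). PTPN12, a tyrosine phosphatase, changed by 0.99 in CAL27 and 1.62 in A431. Most like FAS were IRX2 (r = 0.998), EXOSC8 and NAA16 (r = 0.996 each). EXOSC8, an exosome subunit, had 0.04 in CAL27, which was not called, and changed by 0.49 in A431.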

How the data were processed

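Per the labels' protocols, the 8 libraries were made with the QuantSeq FWD kit, which reads transcript 3′ ends. The deposited values are whole-number counts per gene. Reads were aligned to GRCh38 with STAR, per the submitters' processing notes, and counted with featureCounts 2.0.8 over exons of GENCODE 39 without strand, per the file headers. Each mate was counted, so 70.2% to 76.7% of counts from 1 to 40 were even. Neither the STAR version nor the dose of NEDD8i is given in the sources used here. Of 61533 gene IDs, 61369 matched a symbol.

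CPM were computed from the deposited counts with TMM factors. The test was edgeR 4.0.16 under R 4.3.3 (quasi-likelihood, filterByExpr, a mean for each of 4 groups, 4 residual degrees of freedom, Benjamini-Hochberg adjustment over 18738 genes). The labels do not say that replicates are separate cultures, and p-values then cover only the spread between libraries, which may be technical. In data simulated from A431 DMSO means with 16148 genes, 76% of 1.5-fold and 100% of 2-fold rises and 94% of falls to 0.5-fold were recovered. The simulation gave every gene the same dispersion and changed few genes, none of them with low counts. Recovery in the real libraries may therefore differ.

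The 10 genes, the gene lists and the motifs were chosen with earlier results of these data known. The text names all 10 genes, the 3 called members of each pathway list with the largest rise and the 3 with the largest fall in each line, members at 0, and the 3 genes most like TNFSF10, TNFRSF10B and FAS. A few genes that count in the lists are not reported here by name. The variance between replicates was 6.26 to 13.0 times that of sampling noise (chi-square over degrees of freedom), a ratio that counting each mate also raises. DESeq2 1.42.0, other filters and scalings, each library left out and a replicate block were alternatives. Promoter windows are from RefSeq. Shared exonic bases were computed with GenomicRanges 1.54.1.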

Additional observations from a re-analysis of the deposited data

Results flagged for a closer look

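The response to NEDD8i, as the CAL27 change minus the A431 change, differed between the lines in 8 of 9 tested genes of the set. It also differed in 20 named genes of the lists with counts in every group. The list genes had been named for large called changes in a line, and the set was chosen with earlier values known. These numbers are thus not rates to set beside the share over all genes. Among the ligand and receptors the difference was −0.88 for TNFSF10, −0.47 for TNFRSF10A, −0.42 for TNFRSF10B, 2.08 for TNFRSF10D and −0.41 for FAS. It was 0.62 for FADD, −0.52 for CASP8 and −0.82 for CASP10. Of these 8, the calls of FAS and TNFRSF10A were lost under some other settings.

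Among the other receptors and ligands the difference was 0.97 for TNFRSF12A, −1.76 for TNFSF15, −0.53 for LTBR, 1.15 for NGFR and 1.42 for EDAR. Among adaptors it was 2.56 for TRAF1, −1.81 for TNFAIP3, −1.03 for RBCK1, 0.73 for PEA15 and 1.05 for DEDD2. Among downstream genes it was −0.85 for BID, −0.84 for CASP9, 0.50 for APAF1, 0.65 for BIRC5, 0.79 for HTRA2 and −1.49 for DFFB. Among transcription factors it was 0.32 for RELA, −0.79 for IRF1, 0.34 for STAT2 and −2.84 for MYC. Each of these differences had an adjusted p under 0.05 in edgeR's test of the interaction, in which 34% of all genes tested were called. The differences of the list genes were not tried under other settings. Those of TRAF1 and EDAR rest on few counts. TRAF1 had 2 and 12 counts in A431 NEDD8i libraries, and EDAR had 12 to 24 counts in CAL27 libraries.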

How the results depend on the processing

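No change of the set reversed while called. Of 522 alternative values of 36 changes, 500 stayed on the same side of the threshold and 22 lost the call, and 31 changes never moved across it. Those that lost it are given with their values above, apart from the difference between the lines in FAS, which was also lost with DESeq2 size factors in edgeR (adjusted p = 0.0726), without a filter (0.0788) and with the replicate block (0.0581). The uncalled change of CFLAR in A431 ranged from −0.06 to 0.22. For the named list genes, only the change in the line that named them was tried, and 574 of 585 values stayed on the same side. Leaving out each library in turn, the genes called numbered 7746 to 9548 in CAL27, 6811 to 8327 in A431, 5177 to 5952 for the difference between the lines and 9491 to 11116 between the solvent groups. With the replicate block, 9086 genes were called in CAL27, 7952 in A431, 6239 for the difference and 10765 between the solvent groups. Deviations of same-numbered libraries correlated at −0.03 to 0.02 over all genes tested, so no pairing by replicate number was seen. That check can miss a pairing that touches few genes, and the labels do not settle it. Counts halved for the doubled mates, an alternative chosen after seeing the data, lost no call of the set. Among the 10 genes, depth limits TNFRSF10C, at 14 counts or fewer in a library.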
